A study of Mus musculus with 12 samples.

Results

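Axon guidance ligands and receptors were examined in tumours that had grown from CR705 cells, an established line of mouse pancreatic cancer. Members were the protein-coding genes whose symbols begin with Sema, Plxn, Epha, Ephb, Efna, Efnb, Robo, Slit, Ntn or Unc5, Slitrk genes aside, together with Nrp1, Nrp2, Dcc and Neo1. The annotation holds 74 such genes, of which 73 have a row among the 43432 genes of the count table (Ntn3 was not analysed here), and 65 had enough counts to be tested. Unc50 and Unc5cl match by symbol only and are not counted as guidance receptors: the first is a trafficking protein and the second a death-domain adaptor. RNA came from 12 samples, which were taken as tumours from the RNA extraction text. Of these, 6 were from cells of wild-type label (WT) and 6 from cells whose label, AHRKO, names a knockout of Ahr. Ahr encodes the aryl hydrocarbon receptor, a transcription factor switched on by small molecules that bind it. All 12 share the cell line and the pancreas label, and no compound is named for any of them. The host animals' strain, age and sex, their own Ahr genotype, the site of the tumours and the number of knockout clones are named in no label. No label says that replicates came from separate animals, so a p-value measures only the spread between these samples.

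Guidance cues steer growing axons, and the same proteins are used by epithelial, endothelial and immune cells to attract or repel neighbours and to set adhesion. Semaphorins act through plexins, with neuropilins as co-receptors for most secreted members of class 3. Ephrins are membrane-bound ligands of the Eph receptor tyrosine kinases and signal in both directions across a cell contact, Slits bind Robo receptors, and netrin 1 binds DCC, neogenin and the Unc5 receptors. In pancreatic ductal cancer this group is known for frequent alterations of Slit and Robo genes and for semaphorins linked to nerve invasion.

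Libraries held from 14772343 to 35881469 counts. Ahr itself was at 112 ± 8.18 CPM (reads of the gene per 1e6 reads of a TMM-scaled library, mean ± SD, n = 6) in WT and 102 ± 30.6 in AHRKO, which did not pass the test (adjusted p = 0.606), so the transcript does not check the genotype labels. AHRKO replicate 1 stood apart, at 77.7 on the first principal component, where its group otherwise ran from -0.43 to 32.0 and WT from -46.5 to -22.2. Of 12 pan-leukocyte markers 12 were higher in AHRKO, and their summed level ran from 344 to 609 CPM in WT and from 588 to 3350 in AHRKO, with the highest in replicate 1. None of 10 epithelial markers was called, but their sum was 697 CPM in AHRKO replicate 1, while it was 3459 to 4865 in WT and 3008 to 4791 in AHRKO replicates 2 to 6. Their median log2 fold change was -0.43. Krt19 was lower without overlap, at 565 to 946 CPM in WT and 49.4 to 561 in AHRKO (log2 -1.04), while Sox9 went the other way, at 0.47. Keratin genes Krt8 and Krt18 were at 1509 and 906 CPM on average in WT, while Ins1, Ins2 and Sst were at 0 counts in every library. None of 10 endothelial markers was called, and their sum was 1814 CPM in AHRKO replicate 1, at most 574 in AHRKO replicates 2 to 6 and at most 736 in WT. Of 12 markers of Schwann cells and neurons, 11 were tested, 1 was higher and 2 were lower. S100b rose (log2 2.29), and Snap25 and Nefl fell without overlap (-4.08 and -3.64), from 4.26 and 7.28 CPM on average in WT. The sum of these markers ran from 157 to 278 CPM in WT and from 170 to 247 in AHRKO. Tubb3 and Mbp, at 105 and 80.2 CPM on average in WT, made up most of it, so it does not show the scarcer markers. In bulk tumours, fewer cells of a type and less RNA per cell cannot be told apart.

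Of 65 tested members, 8 were higher and 12 were lower in AHRKO at an adjusted p under 0.05 (edgeR's quasi-likelihood test), and 45 were not called. That is 30.8% of members, near the 29.5% of all 15449 tested genes that were called. The members called higher made up 12.3% against 15.9% of all genes, and those called lower 18.5% against 13.6%. The median log2 fold change (AHRKO over WT) was -0.03 over the members and 0.02 over all tested genes, and the median size of the log2 fold change, sign aside, was 0.43 and 0.31. In 8 members, 4 in each direction, the 6 AHRKO libraries did not overlap the 6 WT libraries, or 12.3%, against 13.4% of all tested genes (6.03% with AHRKO above and 7.35% with AHRKO below). Among 35 tested ligands 4 were higher and 7 lower, and among 28 tested receptors 4 were higher and 5 lower. In 3 families, the plexins and the semaphorins of classes 4 and 6, members were called in both directions, as the plot of log2 fold changes by family shows.

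**Figure D1:**
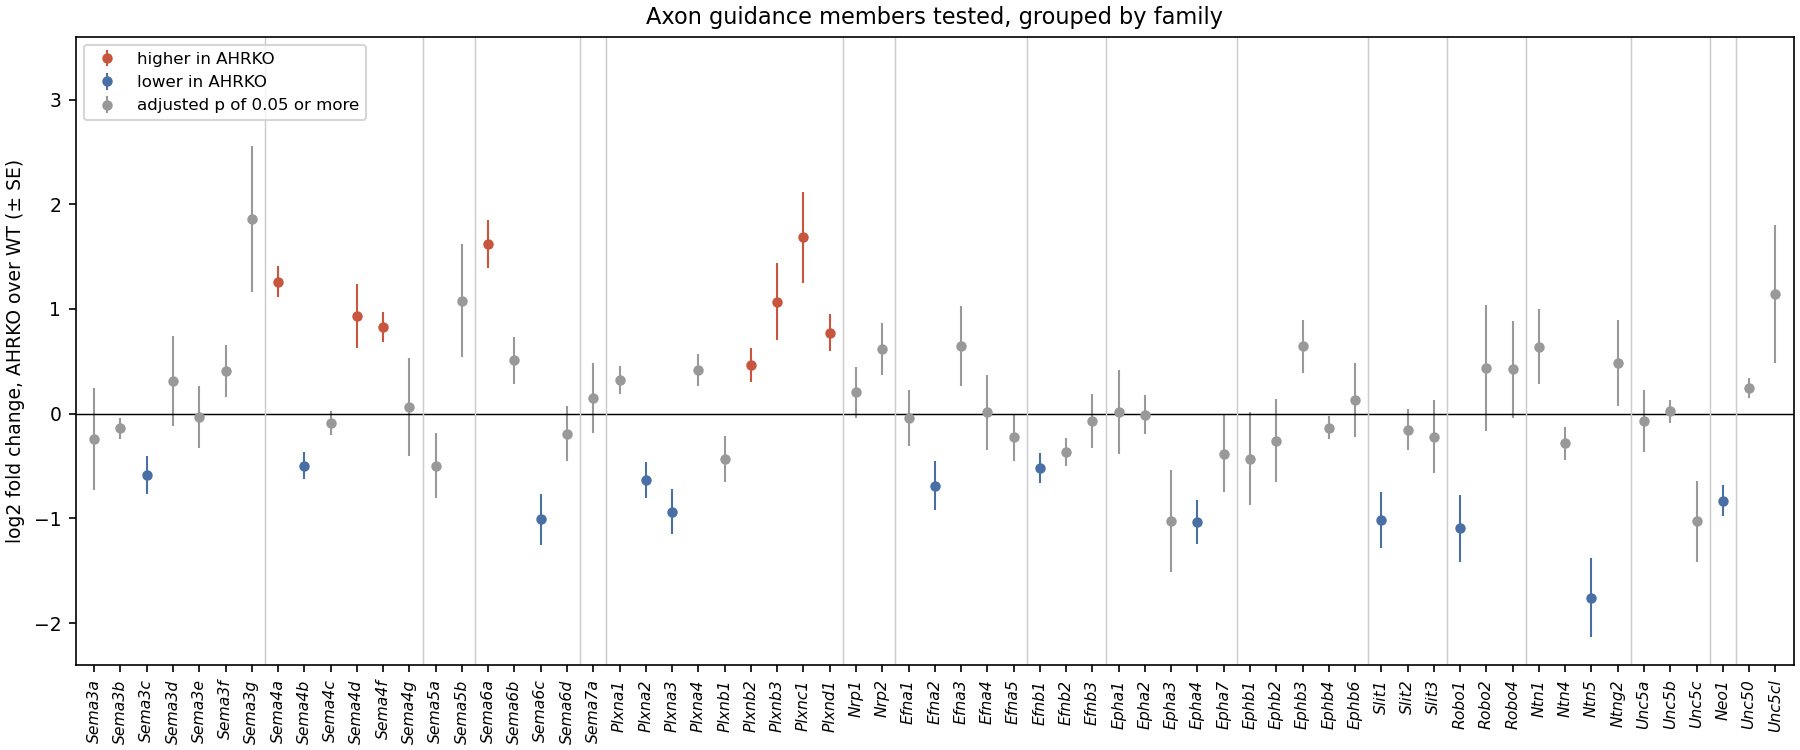
Log2 fold change (AHRKO over WT, ± SE) of the 65 tested members, with families separated by vertical lines. Within the plexins 4 points lie in the called-higher class and 2 in the called-lower class, and all 3 tested Slit genes lie below 0, of which Slit1 was called.

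The semaphorins were the largest set, with 20 members, all tested: 4 were higher, 3 were lower and 13 were not called. The rises were 20% and the falls 15%, beside 15.9% and 13.6% of all tested genes. Class 4, transmembrane semaphorins with known roles in immune cells, held 3 of the rises among 6 tested members. This small class was not tested as a set. Sema4a, a ligand that acts on T cells and on plexin receptors of B and D type, had WT libraries from 56.4 to 89.5 CPM (median 71.1) and AHRKO libraries from 122 to 227 (median 177). Every AHRKO library was above every WT library, and the difference was 2.40-fold (log2 1.26 ± 0.15, SE; adjusted p = 0.000188). The gene (ENSMUSG00000028064) lies on mm10 chromosome 3, 88435959 to 88461182, minus strand. Without AHRKO replicate 1 the log2 fold change was 1.17.

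Sema4f, which is best known from the nervous system, was at 23.7 to 31.4 CPM in WT (median 26.7) and 34.3 to 62.8 in AHRKO (median 43.1). The groups did not overlap, and the difference was 1.77-fold (log2 0.83 ± 0.15, SE; adjusted p = 0.00205). Sema4d, the ligand CD100 that is abundant on T cells, was at 25.7 to 35.5 CPM in WT (median 30.7) and 28.9 to 126 in AHRKO (median 48.3). The groups overlapped, and AHRKO replicate 1 was the highest, with 63.7 CPM in the next library. The log2 fold change of Sema4d was 0.93 ± 0.31 (SE, adjusted p = 0.0375), and 0.55 without AHRKO replicate 1 (adjusted p = 0.0384). Leaving out 1 library ended the call for WT replicates 1, 2, 4, 5 and 6 and for AHRKO replicates 2 and 6, with log2 fold changes of 0.89 to 0.96 and adjusted p of 0.0504 to 0.0755. T cell markers, 10 of 10 of them higher in AHRKO, summed to 5.38 to 21.9 CPM in WT and 21.6 to 277 in AHRKO, also highest in replicate 1, and their part in the value of Sema4d was not tested.

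Sema4b went the other way. It was at 94.7 to 131 CPM in WT (median 108) and 59.2 to 102 in AHRKO (median 76.0), 1.41-fold lower with overlapping groups (log2 -0.50 ± 0.13, SE; adjusted p = 0.0129). Sema4c, at 72.7 ± 10.8 CPM in WT and 68.3 ± 8.92 in AHRKO, and Sema4g, at 49.4 ± 13.3 and 51.6 ± 32.4 (mean ± SD, n = 6), were not called (adjusted p = 0.574 and 0.937).

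Class 6 semaphorins are transmembrane ligands of A-type plexins. Sema6a was at 9.41 to 23.4 CPM in WT (median 14.6) and 36.3 to 67.3 in AHRKO (median 47.1). All AHRKO libraries lay above all WT libraries, a 3.08-fold difference (log2 1.62 ± 0.23, SE; adjusted p = 0.000614). AHRKO replicate 1, at 37.6 CPM, was the second lowest of its group, and without it the log2 fold change was 1.69. Sema6a (ENSMUSG00000019647) lies on mm10 chromosome 18, 47235598 to 47368870, minus strand. Sema6c fell 2.01-fold, from 20.4 to 36.9 CPM in WT (median 25.9) to 8.88 to 24.4 in AHRKO (median 11.9, log2 -1.01 ± 0.24, SE; adjusted p = 0.00935). Only AHRKO replicate 1, at 24.4 CPM, lay inside the WT range, and the next AHRKO library was at 13.3. Sema6b and Sema6d were not called, at log2 fold changes of 0.51 and -0.19 (adjusted p = 0.103 and 0.614). Sema6b was called without WT replicate 2 (0.68, adjusted p = 0.0337) and Sema6d without AHRKO replicate 1 (-0.53, adjusted p = 0.0175).

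Of 7 class 3 semaphorins, the secreted ligands of neuropilins and plexins, Sema3c was the only one called. It was at 150 to 196 CPM in WT (median 173) and 60.8 to 158 in AHRKO (median 116), 1.5-fold lower (log2 -0.58 ± 0.18, SE; adjusted p = 0.0313). AHRKO replicate 1 was the lowest and AHRKO replicate 2 the only one inside the WT range. Leaving out WT replicate 1, 3, 5 or 6, or AHRKO replicate 3 or 4, ended the call, with log2 fold changes of -0.59 to -0.54 and adjusted p of at most 0.0649. Sema3e, a direct ligand of plexin D1 that needs no neuropilin, was at 86.2 ± 11.6 CPM in WT and 84.2 ± 35.2 in AHRKO (mean ± SD, n = 6; adjusted p = 0.947). Sema3g, a semaphorin of endothelium, had the largest log2 fold change of the class, 1.86 ± 0.69 (SE), and did not pass (adjusted p = 0.0604). Its AHRKO value rested on replicate 1, at 60.1 CPM against 8.38 in the next library and at most 7.28 in WT. Sema3g was called without AHRKO replicate 3, 5 or 6, at 2.02 to 2.06, with replicate 1 kept. The remaining class 3 members, Sema3a, Sema3b, Sema3d and Sema3f, had log2 fold changes from -0.24 to 0.41.

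Sema7a, a membrane-anchored ligand of plexin C1 and integrins, was the semaphorin with the highest level per exon length, at 42.2 ± 17.4 CPM per kb of exon in WT and 46.7 ± 25.0 in AHRKO (mean ± SD, n = 6). It was not called (log2 0.15, adjusted p = 0.765). In class 5, Sema5a was at 13.6 ± 3.61 CPM in WT and 9.62 ± 4.67 in AHRKO (adjusted p = 0.246). Sema5b stayed under 2 CPM in every library but AHRKO replicate 1, at 7.06 (adjusted p = 0.149).

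**Figure D2:**
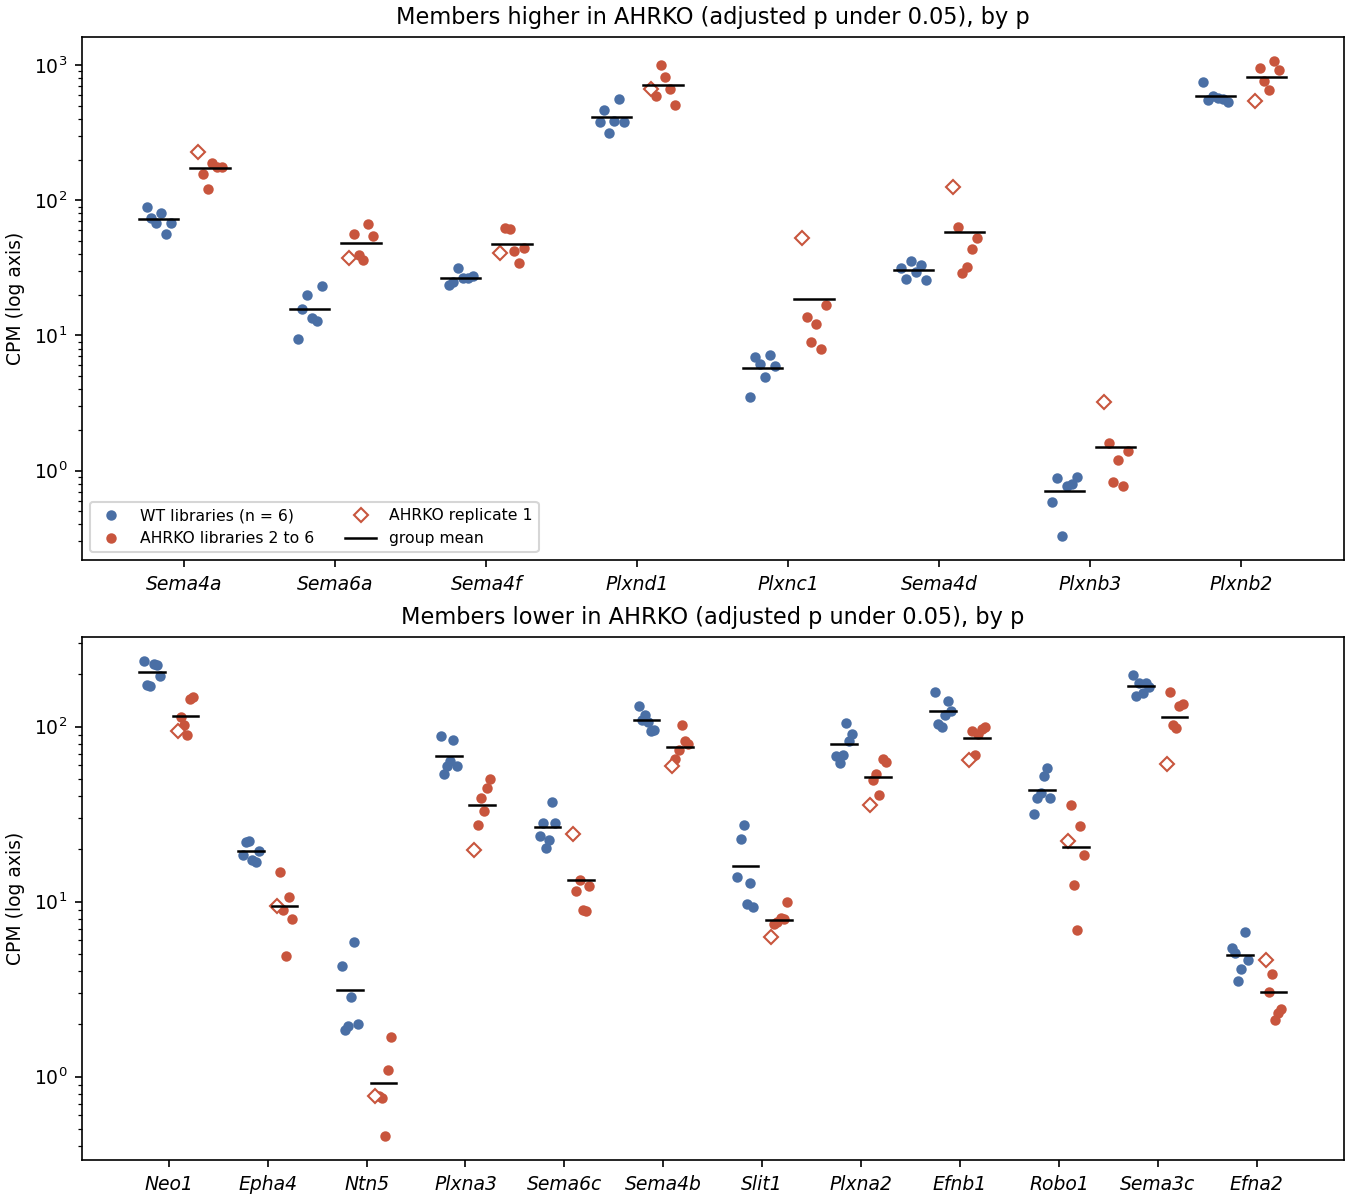
CPM of the 20 called members in each library on a log axis, with WT in blue, AHRKO in red, AHRKO replicate 1 as an open diamond and the group mean as a bar. Sema4a, Sema6a, Sema4f and Plxnc1 show no overlap among the rises, and Neo1, Epha4, Ntn5 and Plxna3 none among the falls.

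The plexins, receptors of the semaphorins, held 6 calls among 9 tested members, 4 higher and 2 lower. That is 44.4% and 22.2%, beside 15.9% and 13.6% of all tested genes, in a small family that was not tested as a set. Plxnd1 was at 314 to 565 CPM in WT (median 383) and 509 to 998 in AHRKO (median 668). Every AHRKO library was above the WT median, although WT replicate 5 overlapped the lowest AHRKO library, and the difference was 1.71-fold (log2 0.77 ± 0.18, SE; adjusted p = 0.00746). Plexin D1 is an endothelial receptor in development and occurs on immune and cancer cells too. Without AHRKO replicate 1, where endothelial markers were highest, its log2 fold change was 0.79. The part of endothelial or other cells in the value of Plxnd1 was not tested. Plxnb2, a receptor of Sema4 ligands in epithelium and macrophages, was at 532 to 745 CPM in WT (median 570) and 544 to 1083 in AHRKO (median 843), 1.38-fold higher (log2 0.47 ± 0.16, SE; adjusted p = 0.0442). Here AHRKO replicate 1 was the lowest library of its group. The call of Plxnb2 was close to the threshold and was lost without any 1 of WT replicates 2 to 6 and AHRKO replicates 2, 3, 5 and 6, with log2 fold changes of 0.37 to 0.49 and adjusted p of 0.0547 to 0.0921.

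Plxnc1, the receptor of Sema7a and a gene of myeloid cells, was at 3.53 to 7.20 CPM in WT (median 6.07) and 7.91 to 52.3 in AHRKO (median 12.9). The groups did not overlap, but AHRKO replicate 1 stood far above the next library, at 16.7 CPM. The fold change was 3.21 (log2 1.68 ± 0.43, SE; adjusted p = 0.0125), and without AHRKO replicate 1 the log2 value was 1.04 (adjusted p = 0.00452). Macrophage and dendritic cell markers, of which 10 of 11 were higher, summed to 437 to 994 CPM in WT and 622 to 3911 in AHRKO, highest in replicate 1, and their part in the value of Plxnc1 was not tested. Plxnb3 was scarce, at 0.326 to 0.904 CPM in WT and 0.772 to 3.20 in AHRKO (log2 1.07 ± 0.37, SE; adjusted p = 0.0440). Its call ended on leaving out any library but AHRKO replicate 3 or 5, with adjusted p of 0.0538 to 0.0853, and without AHRKO replicate 1 its log2 fold change was 0.71.

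A-type plexins, which pair with neuropilins or bind class 6 semaphorins, split. Plxna3 fell 1.91-fold, from 53.6 to 88.2 CPM in WT (median 61.9) to 19.8 to 50.4 in AHRKO (median 35.9), with no overlap (log2 -0.93 ± 0.21, SE; adjusted p = 0.00699). Plxna2 fell 1.55-fold, from 62.2 to 104 CPM in WT (median 75.6) to 35.5 to 65.2 in AHRKO (median 51.8, log2 -0.63 ± 0.17, SE; adjusted p = 0.0149). Plxna1, at 213 ± 25.8 CPM in WT and 266 ± 49.3 in AHRKO, and Plxna4, at 17.4 ± 3.06 and 23.3 ± 4.5 (mean ± SD, n = 6), did not pass (adjusted p = 0.0839 and 0.0551). Plxna1 was called without AHRKO replicate 4 (log2 0.42, adjusted p = 0.0107). Plxna4 was called without WT replicate 1 or AHRKO replicate 1, 3 or 5, at 0.46 to 0.50. Plxnb1, the best known receptor of Sema4d, was at 102 ± 20.7 CPM in WT and 76.0 ± 25.1 in AHRKO (adjusted p = 0.157).

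Measured per exon length, the plexins together made up 164 to 209 CPM per kb in WT libraries and 206 to 287 in AHRKO. Plxnb2 and Plxnd1 supplied most of it, 70.6% to 77.0% in WT and 76.1% to 84.5% in AHRKO, with overlap between the groups. Plxna2 and Plxna3, the plexins called lower, held 5.95% to 7.84% of the plexin sum in WT and 2.22% to 4.04% in AHRKO, with no overlap. Most of that sum is Plxnb2 and Plxnd1, which were called higher. This share follows from those calls, so its lack of overlap is not a separate result. The neuropilins were not called: Nrp1 was at 122 ± 30.9 CPM in WT and 141 ± 52.7 in AHRKO (adjusted p = 0.557), and Nrp2 at 79.7 ± 20.5 and 123 ± 47.0 (mean ± SD, n = 6; adjusted p = 0.0767). Nrp2 was called without AHRKO replicate 4 or 5, at log2 fold changes of 0.75 and 0.73.

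**Figure D3:**
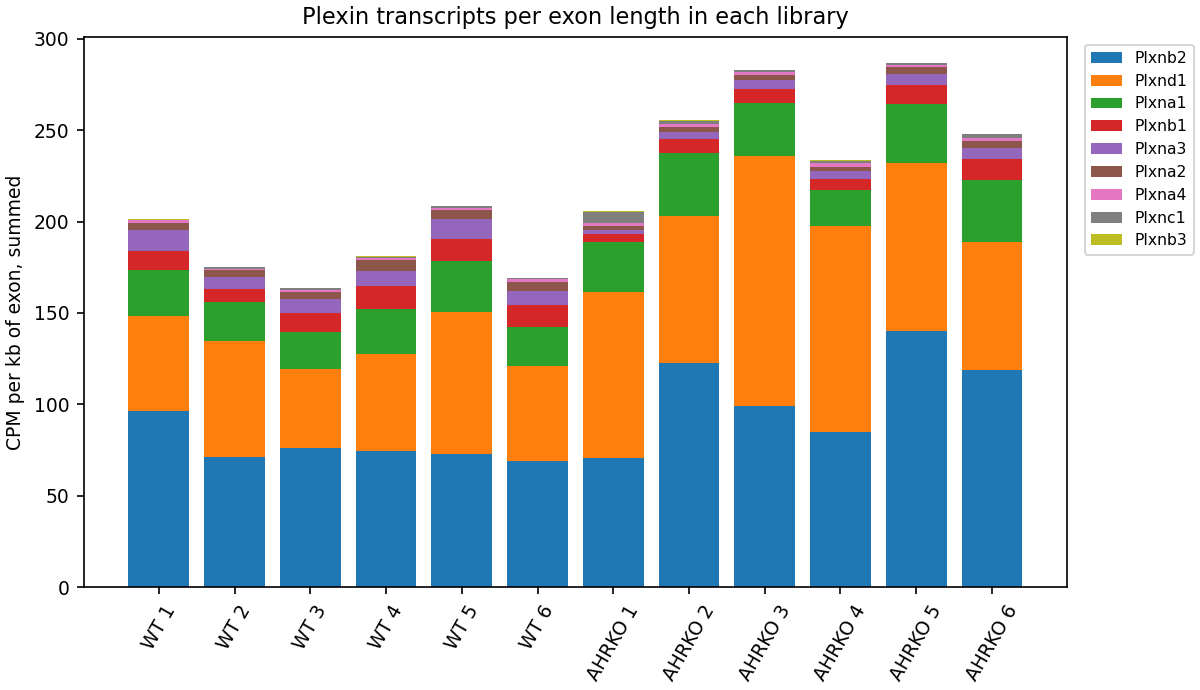
Plexin transcripts in each library as stacked CPM per kb of exon, with 1 bar per library and 1 colour per gene. The sum runs from 164 to 209 in WT and from 206 to 287 in AHRKO, and Plxnb2 and Plxnd1 form the bottom blocks of each bar.

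Of 10 tested Eph receptors 1 was called, and of 8 ephrins 2, beside 29.5% of all tested genes. Epha4, a receptor that binds both ephrin classes, fell 2.05-fold, from 16.8 to 22.2 CPM in WT (median 19.0) to 4.90 to 14.7 in AHRKO (median 9.22). The groups did not overlap (log2 -1.04 ± 0.21, SE; adjusted p = 0.00404), and AHRKO replicate 1, at 9.43 CPM, lay in the middle of its group. Epha4 (ENSMUSG00000026235) lies on mm10 chromosome 1, 77367185 to 77515088, minus strand. Epha2, the main EphA receptor of epithelial tumours and the member with the third highest level per exon length, was at 228 ± 14.8 CPM in WT and 227 ± 67.0 in AHRKO (mean ± SD, n = 6; adjusted p = 0.980). Its AHRKO libraries spread from 107 to 298 CPM, around a WT range of 207 to 250. Epha3 was lower by a similar size as Epha4, with a log2 fold change of -1.02 ± 0.49 (SE), and did not pass (adjusted p = 0.132), while without AHRKO replicate 1 it did (-1.34, adjusted p = 0.0438).

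Among the EphB receptors none of 5 was called. Ephb4, the receptor of ephrin-B2 in veins and epithelium, was at 153 ± 15.2 CPM in WT and 139 ± 22.4 in AHRKO (adjusted p = 0.376). Ephb3 was at 37.2 ± 5.14 and 58.1 ± 26.7 (mean ± SD, n = 6; adjusted p = 0.0727), and passed without AHRKO replicate 3 or 4, at log2 fold changes of 0.79 and 0.75. Ephb1 was at 1.18 to 2.77 CPM in WT and 0.550 to 4.21 in AHRKO, with the highest value in AHRKO replicate 1, and without that library its log2 fold change was -1.08 (adjusted p = 0.0122) in place of -0.43 (adjusted p = 0.495). Of the ligands, Efnb1 fell 1.44-fold, from 98.9 to 157 CPM in WT (median 119) to 64.4 to 99 in AHRKO (median 92.5), with the highest AHRKO library just inside the WT range (log2 -0.52 ± 0.14, SE; adjusted p = 0.0166). Efnb2 had medians of 209.8 CPM in WT and 169.6 in AHRKO (log2 -0.36, adjusted p = 0.0553), and was called without AHRKO replicate 1 (log2 -0.27) or replicate 2 (log2 -0.45). Efna2 fell 1.61-fold at a low level, from 3.50 to 6.70 CPM in WT to 2.11 to 4.63 in AHRKO (log2 -0.69 ± 0.23, SE; adjusted p = 0.0417). That call ended on leaving out any library but WT replicate 3 or AHRKO replicate 1 or 3, with log2 fold changes of -0.73 to -0.58 and adjusted p of at most 0.0969. Efna1, the usual partner of Epha2, had medians of 45.8 CPM in WT and 47.9 in AHRKO (adjusted p = 0.927). The remaining tested members of both families were not called, with log2 fold changes of 0.65 for Efna3, 0.01 for Efna4, -0.23 for Efna5, -0.07 for Efnb3, 0.02 for Epha1, -0.38 for Epha7, -0.26 for Ephb2 and 0.13 for Ephb6 (adjusted p of at least 0.226).

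Robo1 and Slit1 fell. Robo1, a Slit receptor, was at 31.8 to 57.7 CPM in WT (median 40.5) and 6.84 to 35.4 in AHRKO (median 20.3), 2.14-fold lower (log2 -1.10 ± 0.32, SE; adjusted p = 0.0216). All 6 AHRKO libraries lay below the WT median, and 1 of them, replicate 2, inside the WT range. Without WT replicate 5 the log2 fold change was -1.0 and the adjusted p 0.0503. Slit1 was at 9.33 to 27.5 CPM in WT (median 13.2) and 6.29 to 9.89 in AHRKO (median 7.84), 2.03-fold lower (log2 -1.02 ± 0.27, SE; adjusted p = 0.0136). The WT libraries of Slit1 varied more than the AHRKO libraries, with replicates 2 and 3 highest. With limma-voom and sample quality weights Slit1 was not called (log2 -0.68, adjusted p = 0.119). Slit2 and Slit3, the Slit genes with higher levels per exon length, were at 86.7 ± 13.8 and 131 ± 39.7 CPM in WT and 77.9 ± 24.4 and 113 ± 75.2 in AHRKO (mean ± SD, n = 6), and neither was called (adjusted p = 0.580 and 0.667). Robo4, the endothelial Robo receptor, was at 89.2 CPM in AHRKO replicate 1 and at most 25.1 in the other AHRKO libraries (adjusted p = 0.516), in the library where the endothelial markers were highest, and their part in that value was not tested. Robo2, scarce at 0.942 CPM in WT and 1.25 in AHRKO on average, was not called (adjusted p = 0.613).

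Neo1 encodes neogenin, a receptor of netrins and of repulsive guidance molecules. It was at 171 to 238 CPM in WT (median 210) and 89.1 to 148 in AHRKO (median 108). No AHRKO library reached the lowest WT library, and the level was 1.78-fold lower (log2 -0.83 ± 0.15, SE; adjusted p = 0.00197). Neo1 (ENSMUSG00000032340) lies on mm10 chromosome 9, 58874687 to 59036441, minus strand. Dcc, its relative, had at most 1 count in any library. Ntn5, a little studied netrin-like gene, fell 3.38-fold from 1.86 to 5.86 CPM in WT (median 2.43) to 0.456 to 1.68 in AHRKO (median 0.773), with no overlap (log2 -1.76 ± 0.38, SE; adjusted p = 0.00529). Ntn1 was at 5.77 ± 0.952 CPM in WT and 9.0 ± 6.61 in AHRKO (adjusted p = 0.197), with 21.9 CPM in AHRKO replicate 1, and Ntn4 at 42.2 ± 3.74 and 34.7 ± 9.22 (mean ± SD, n = 6; adjusted p = 0.193). Unc5b, the netrin receptor with the highest level per exon length here, was at 231 ± 31.6 CPM in WT and 235 ± 29.9 in AHRKO (adjusted p = 0.897). Unc5c, at 7.91 ± 1.84 and 3.87 ± 2.65 CPM, did not pass (log2 -1.03, adjusted p = 0.0621) and was called without AHRKO replicate 1 (log2 -1.43, adjusted p = 0.00381). Unc50 and Unc5cl, the symbol matches, were not called (adjusted p = 0.0703 and 0.207), and Unc50 passed without AHRKO replicate 5 (log2 0.31). Ntng2, at a log2 fold change of 0.48, and Unc5a, at -0.07, were not called either (adjusted p = 0.394 and 0.885).

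Set side by side, some ligands and receptors were called in the same direction and others were not. Sema4a and its receptors Plxnd1 and Plxnb2 were all called higher, at log2 fold changes of 1.26, 0.77 and 0.47, with Plxnb2 close to the threshold. Plxnb1, another B-type plexin, was not called, at -0.43, while its ligand Sema4d was called higher at 0.93. Sema6a was called higher at 1.62 and its receptor Plxna2 lower at -0.63. Of the other A-type plexins, Plxna3 was called lower at -0.93, and Plxna1 and Plxna4 were not called, at 0.32 and 0.42. Plxnc1 was called higher at 1.68 and its ligand Sema7a was not called, at 0.15. Slit1 and Robo1 were both called lower, at -1.02 and -1.10, and Slit2 and Slit3 were not called. Each of the calls of Slit1 and Robo1 ended in 2 of 21 alternative settings, a leukocyte covariate aside. For Slit1, limma-voom was among them. Neo1 was called lower at -0.83 with its ligand Ntn1 not called, at 0.64.

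**Figure D4:**
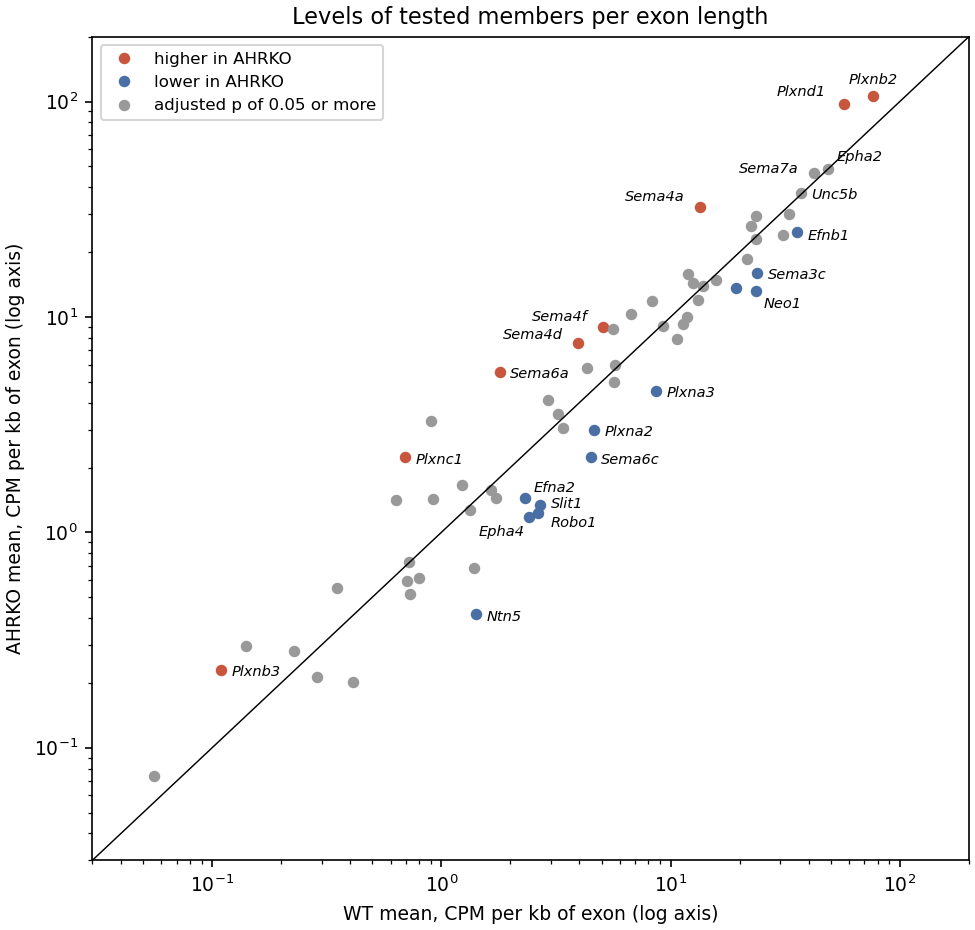
Mean CPM per kb of exon of the 65 tested members in WT (x axis) and AHRKO (y axis), both on log axes, with the diagonal marking equal levels. Plxnb2 and Plxnd1 are highest in both groups, and Sema4a lies well above the diagonal, at 13.5 in WT and 32.3 in AHRKO.

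Levels were compared between genes only per exon length. Of 73 members, 22 had at least 10 CPM per kb in both groups and 19 were under 1 in both. The order began with Plxnb2 at 76.8 ± 10.0 CPM per kb in WT and 106 ± 26.0 in AHRKO, Plxnd1 at 56.8 ± 12 and 97.1 ± 24.1, and Epha2 at 48.9 ± 3.16 and 48.6 ± 14.3 (mean ± SD, n = 6). Sema7a and Unc5b held ranks 4 and 5 in both groups, although the SD of Sema7a spans its neighbours in that order. Sema4a moved from rank 18 in WT to rank 6 in AHRKO, and Neo1 from rank 11 to rank 20. Efnb1, at 35.6 ± 6.39 CPM per kb in WT and 24.8 ± 4.39 in AHRKO, moved from rank 6 to rank 10.

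The filter on low counts left out 8 members. Dcc, Epha5, Epha6, Epha8, Epha10 and Unc5d had at most 7 counts in any library, and Robo3 at most 20. Ntng1, a netrin-G that is anchored to the membrane and binds a partner on neurons, had 15 counts over the 6 WT libraries and 99 over the 6 AHRKO libraries. Single WT libraries had 0, 11, 3, 0, 0 and 1 counts of Ntng1 and single AHRKO libraries 7, 33, 13, 18, 12 and 16. In CPM all AHRKO libraries were above all WT libraries, and in the fit with no filter its log2 fold change was 3.22 ± 0.70 (SE, adjusted p = 0.00812). This member was singled out after its values were seen.

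AHRKO replicate 1 was the highest or lowest library of its group in 70.8% of the 65 tested members, and in 65.4% of all tested genes. Without it 66 members were tested, 9 were higher and 17 lower, while 19.1% of all tested genes were higher and 17.8% lower. Of the calls made with all libraries, 7 of 8 rises and 12 of 12 falls were made without it too, the exception being Plxnb3 (adjusted p = 0.0769). Plxna4 was added to the rises, and Efnb2, Epha3, Ephb1, Sema6d and Unc5c to the falls. Ntng1, which failed the filter with all libraries, was among the rises too. It passed the filter there only through AHRKO libraries, at 0.772 to 1.60 CPM against at most 0.314 in WT. Its direction was thus fixed by the filter and is not a separate result. Among called members, Plxnc1, Sema4d and Plxnb3 moved by over 1.5 times on the log2 scale when it was left out.

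**Figure D5:**
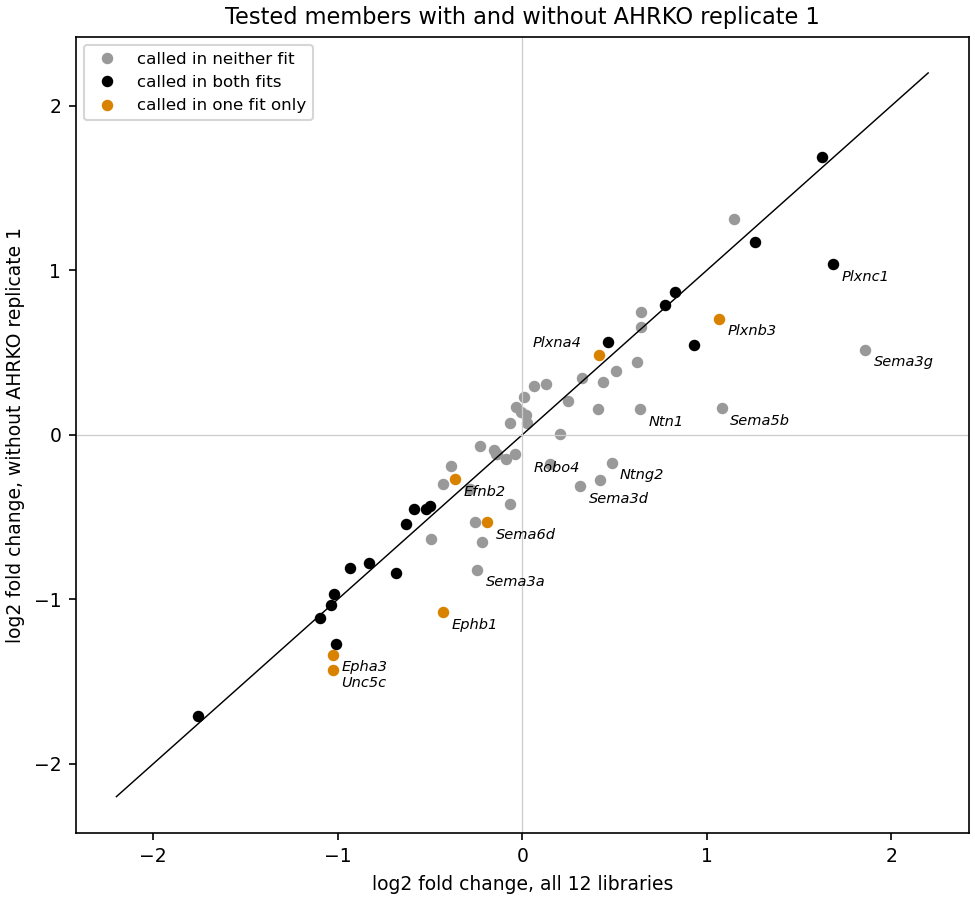
Log2 fold change (AHRKO over WT) of the tested members with all 12 libraries (x axis) and without AHRKO replicate 1 (y axis), with the diagonal marking equal values. Sema3g, at 1.86 and 0.52, and Sema5b, at 1.08 and 0.16, lie furthest below the diagonal, and 7 members are called in 1 of the fits only.

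A leukocyte score, averaging the log2 CPM of the 12 pan-leukocyte markers, was 4.35 to 5.19 in WT and 5.24 to 7.76 in AHRKO, highest in replicate 1. It did not overlap between the groups, so its part and that of genotype cannot be told apart. With the score as a covariate, 10 members were higher and 17 lower, beside 12.4% and 13.7% of all tested genes. Of the 8 rises 5 were called in that fit too, namely Sema4a (log2 1.03), Sema4f (0.81), Sema6a (1.88), Plxnb2 (0.96) and Plxnd1 (0.84). Of the 12 falls 4 were called, namely Epha4 (-1.05), Efna2 (-1.07), Sema6c (-1.76) and Slit1 (-1.23). The other 11 calls ended, and for Plxnc1, Sema4d and Plxnb3 the log2 fold change fell below 0, to -0.16, -0.09 and -0.09. The falls that ended were Sema3c (-0.02), Plxna2 (-0.11), Efnb1 (-0.12), Plxna3 (-0.22), Sema4b (-0.28), Neo1 (-0.45), Robo1 (-1.07) and Ntn5 (-1.20).

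Of the 20 chromosomes with at least 20 tested genes, 8 had a median log2 fold change more than 0.1 from 0. The lowest medians were -0.31 over 826 genes of chromosome 8, where neither Efnb2, at -0.36, nor Nrp1, at 0.20, was called, and -0.24 over 524 genes of chromosome 12, which holds no tested member. On chromosome 9, with 882 genes, the median was -0.11, and Neo1 fell by 0.83. Among chromosomes with a median above 0, chromosome 15 was at 0.23 over 604 genes, and Plxnb2 was called higher there, at 0.47. Chromosome 16 was at 0.33 over 475 genes, chromosome 7 at 0.21 over 1164 and chromosome 5 at 0.15 over 962, and the called members there, Robo1, Sema4b, Ntn5 and Sema3c, were lower. Chromosome 17, at 0.12 over 754 genes, holds no called member. The part of these chromosome-wide values in the members' values was not tested.

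Promoters are shown for 3 called members with 1 listed start site each, a rise with the most matches to the AHR core motif, a fall with matches and a rise with none. The core of the sites that AHR binds with its partner ARNT is GCGTG, which was searched on both strands (CACGC on the other) in the 250 bases before each start. The same letters are found in the core bound by hypoxia-inducible factors. Sequences are from RefSeq (GRCm38.p6, the assembly of mm10), run 5′ to 3′ on the gene's strand and carry matches in capitals. Plxnd1 has chr6:115995006-115995255, Neo1 has chr9:59036442-59036691 and Sema4f has chr6:82939770-82940019, all on the minus strand.
Plxnd1: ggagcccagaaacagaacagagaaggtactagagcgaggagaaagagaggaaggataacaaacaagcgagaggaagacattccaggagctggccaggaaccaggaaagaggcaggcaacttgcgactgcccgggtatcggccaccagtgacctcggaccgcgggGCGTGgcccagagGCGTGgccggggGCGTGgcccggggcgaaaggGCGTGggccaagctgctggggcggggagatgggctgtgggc
Neo1: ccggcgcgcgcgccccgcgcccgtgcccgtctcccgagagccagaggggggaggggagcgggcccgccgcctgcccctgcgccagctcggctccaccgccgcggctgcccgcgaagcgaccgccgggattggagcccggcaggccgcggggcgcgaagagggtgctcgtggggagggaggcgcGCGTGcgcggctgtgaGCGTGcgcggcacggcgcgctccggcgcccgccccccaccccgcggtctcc
Sema4f: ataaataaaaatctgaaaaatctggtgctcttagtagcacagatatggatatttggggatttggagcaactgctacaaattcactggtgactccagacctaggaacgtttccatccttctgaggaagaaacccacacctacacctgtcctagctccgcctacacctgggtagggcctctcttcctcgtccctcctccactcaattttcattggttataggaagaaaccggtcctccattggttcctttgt

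The Plxnd1 window holds 4 matches, that of Neo1 holds 2 and that of Sema4f none. RefSeq windows were at hand for 63 members, with 79 windows in all, and 36.7% of them held the motif, against 28.2% of 32851 windows of all genes in the table. The share was 2 of 13 windows (7 genes) among members called higher and 6 of 13 (11 genes) among those called lower. Among tested members that were not called it was 19 of 47 (39 genes). Windows of the same gene are not separate cases, and Sema4a, Sema4d and Plxnb2 gave 4, 3 and 2 windows, all without the motif. No window was at hand for Sema6a or Slit1. Sema4a, with 4 windows, held none, and Plxnc1, Plxna2, Efnb1, Robo1, Sema3c and Sema6c held at most 1 match in a window. A match is a description of the letters and shows no binding.

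Proteins that carry the signals inward or serve as co-receptors were followed in a list of 98 genes, of which 92 were tested, with a median log2 fold change of 0.03. Of these 6 were higher, or 6.52% beside 15.9% of all tested genes, and 15 were lower, or 16.3% beside 13.6%, which is near the share over all genes. In the list for plexin and semaphorin signalling, 0 of 18 were higher and 6, or 33.3%, were lower by edgeR's quasi-likelihood test. That stands beside the same 15.9% and 13.6% of all genes, and this hand-chosen list was not tested as a set. It mixes effectors with receptor kinases, of which Mst1r and Erbb2 were lower and Met was not called. The falls included Gipc1, an adaptor that binds plexins and neuropilin 1, with a log2 value of -0.69 (adjusted p = 0.000182). Mst1r, the receptor RON that can pair with B-type plexins, was at -1.04, and Farp2, an exchange factor of A-type plexins, at -0.77. Among co-receptors and other receptors of the ligands, Nrcam, a cell adhesion molecule of neuropilin complexes, was at -1.59 (adjusted p = 0.000877), Itgb1, an integrin chain, at -0.35, and Gpc1, a Slit-binding glypican, at 0.75. Of 19 tested Eph and ephrin partners, Adam10, a protease that sheds ephrins, was at -0.47, Chn1, a RAC inhibitor acting after Epha4, at -0.90, and Chn2, its relative, at 0.64. In the Slit, Robo and netrin list Srgap1, which binds Robo1, was at -0.90 (adjusted p = 0.00173), Maged1 at -0.37 and Ablim1 at 0.77. Of 16 shared effectors of the cytoskeleton, Rock2 was at -0.68, Rac1 at 0.37 and Pak3 at -1.19, and the other 13 were not called. Of the genes named here, Gipc1 and Itgb1 lie on chromosome 8 and Nrcam and Rock2 on chromosome 12, the chromosomes with the lowest medians, whose part in these values was not tested. Without AHRKO replicate 1, 10 of 92 genes of the whole list were higher and 22 lower, beside 19.1% and 17.8% of all tested genes.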

How the data were processed

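The authors deposited 1 table of raw counts, with a whole number per gene and library for all 12 samples. Per the labels' protocols, poly-T beads were used to enrich messenger RNA, and sequencing was on Illumina platforms. HISAT2, SAMtools, HTSeq, DESeq2 and mm10 are named in the submitters' processing notes, while versions, annotation and strand setting were not given in the sources used here. Protocol texts also describe cultured cells with test compounds, and all 12 samples were taken as untreated tumours from the RNA extraction text.

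Symbols, mm10 positions and exon lengths (union of all exons) came from GENCODE M21, joined by identifier for 42548 of 43432 genes. Genes passing edgeR's filterByExpr were scaled by TMM, and the groups were compared in edgeR (quasi-likelihood, two-sided). P-values were adjusted after Benjamini and Hochberg across the 15449 genes in the fit, and calls needed less than 0.05. CPM use TMM-scaled totals, the mean log2 CPM a prior count of 2, and SE is the log2 fold change over the root of F. Per-length levels are CPM per kb of exon. Without stated strand use, reads of overlapping genes such as the Plxna4 antisense transcripts cannot be told apart. No pair of libraries of the same group agreed within sampling noise (30 pairs, lowest chi-squared per degree of freedom 13.6). The test was tried on simulated data. The software was edgeR 4.0.16 in R 4.3.3, with DESeq2 1.42.0 and limma 3.58.1 for alternatives.

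The members, marker lists and partner lists were chosen with earlier results of these data known. Named were the called members, the member with the highest CPM in each family without one, and up to 3 partners a list by p; other members are named to account for the whole set. Alternatives were scaling by upper quartiles or RLE, a stricter filter and none, DESeq2, voom from limma with quality weights, a robust edgeR fit, a replicate block, the leukocyte score as a covariate and leaving out each library. Leaving out AHRKO replicates 1 and 5 together was added after seeing the data. Markers of acinar and islet cells (0 of 1 tested called), fibroblasts (0 of 10), skeletal muscle (1 of 2 higher) and adipocytes (2 of 5 higher) were examined too.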

Additional observations from a re-analysis of the deposited data

Results flagged for a closer look

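In 18 of 130 pairs of a tested member and a group, 1 library lay far from the other 5 by Dixon's gap criterion on untransformed CPM. Chance meets it in about 1 group in 20 for normally distributed values, which CPM need not be. AHRKO replicate 1 was that library in 16 of them, always as the highest, on a scale where low values stand out less. Among the 65 tested members it was the highest of its group in 26 and the lowest in 20. Its CPM were 4.21 for Ephb1 (next 1.54), 21.9 for Ntn1 (next 8.81), 46.2 for Ntng2 (next 13.5), 3.2 for Plxnb3 (next 1.6), 52.3 for Plxnc1 (next 16.7), 89.2 for Robo4 (next 25.1), 21.9 for Sema3a (next 8.43), 6.76 for Sema3d (next 2.32). In the same library they were 148 for Sema3f (next 89.7), 60.1 for Sema3g (next 8.38), 126 for Sema4d (next 63.7), 7.06 for Sema5b (next 1.42), 24.4 for Sema6c (next 13.3), 108 for Sema6d (next 47.3), 258 for Slit3 (next 116), 13.7 for Unc5a (next 6.36). The summed leukocyte, endothelial and fibroblast markers were highest in this library too, at 3350, 1814 and 58049 CPM, and the summed epithelial markers lowest, at 697. The part of these cells in the members' values was not tested. The other pairs were Unc5cl in AHRKO replicate 5, at 16.4 CPM with 5.27 in the next library, and Plxnb2 in WT replicate 1, at 745 with 589 in the next.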

How the results depend on the processing

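Apart from the leukocyte covariate, all 20 called members kept their direction under 21 other settings (20 for Plxnb3), and 10 stayed called in each: Sema4a, Sema4f, Sema6a, Sema6c, Plxnd1, Plxna2, Plxna3, Epha4, Neo1 and Ntn5. With the leukocyte covariate, 23 of 65 tested members had a log2 fold change of the other sign. In 13 of them neither fit made a call, and the 10 called in 1 of the fits were Efna5 (0.68), Epha2 (0.65), Ntn1 (-0.83), Ntng2 (-1.32), Plxnb3 (-0.0894), Plxnc1 (-0.16), Robo4 (-1.42), Sema3d (-1.40), Sema4d (-0.0937) and Sema7a (-1.08). With the covariate 11 of 92 partner genes were higher and 25 lower, beside 12.4% and 13.7% of all tested genes. The cause of these changes was not tested. Deviations of same-numbered libraries correlated at -0.468 to 0.029, which gave no sign of pairing. Libraries of different numbers were not set beside them, and the labels do not say what a replicate number shares. With a replicate block 1114 genes were higher and 1240 lower, with 4 and 6 members and 3 partner genes higher. Partner genes called higher were 10 with DESeq2, 12 with limma-voom (23 lower) and 11 without AHRKO replicates 1 and 5. Over all tested genes the same fits called 3005, 3080 (2948 lower) and 3055 higher, beside 2451 in the main fit. Leaving out 1 library gave 1822 to 2980 genes higher and 1632 to 2778 lower, 5 to 11 members higher and 9 to 17 lower, and 5 to 10 partner genes higher and 12 to 22 lower. The lowest count of members higher, 5, came without AHRKO replicate 2, and the partner count of 10 without AHRKO replicate 1. Depth limits the members with few counts: Plxnb3 had at most 54 in a library and Ntn5 at most 118.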
